A study of Mus musculus with 12 samples.

Results

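The CGRP and adrenomedullin system in the mouse retina was described through 8 genes, which are the ligand genes Calca, Calcb, Adm and Adm2, the receptor gene Calcrl, and the accessory protein genes Ramp1, Ramp2 and Ramp3. They are 8 of the 54532 gene identifiers in the deposited count and FPKM tables and were matched by Ensembl identifier. The members belong together by their biology, but the set was chosen by someone who knew earlier results of these data, in which Calca differed between MOG and SHAM and Calcrl between the needled groups and MOG. It was in that sense selected on those values, which are therefore given as descriptions.

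Retinal RNA of wild type C57BL/6 mice, 13 weeks old and female, was sequenced in 12 libraries, 3 in each of 4 groups. SHAM was the sham control, and the labels and methods used here do not describe what the sham procedure was. The MOG, GB20 and GV16 mice were all immunized with the MOG35-55 peptide in complete Freund's adjuvant with pertussis toxin, which induces experimental autoimmune encephalomyelitis with optic neuritis. GB20 and GV16 mice were in addition needled repeatedly at the acupoint of that name over the last weeks before sacrifice, GV16 being the control site. They were anesthetized with xylazine and ketamine for each needling. Whether SHAM and MOG mice were anesthetized is not stated, so needling and anesthesia cannot be told apart in a comparison of a needled group with MOG. Mice were handled as groups of a few animals in repeats of the experiment, and it is not clear from them whether 1 library holds RNA of more than 1 mouse. The p-values below measure the spread between these libraries only.

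Calcitonin gene-related peptide (CGRP), adrenomedullin and adrenomedullin 2 (intermedin) are related peptides that relax vessels and act on nerve and immune cells. They share a G protein-coupled receptor, the product of Calcrl, which works only in a pair with one of the receptor activity-modifying proteins (RAMPs). With RAMP1 the pair forms the CGRP receptor, and with RAMP2 or RAMP3 it forms adrenomedullin receptors, all of which raise cAMP through Gs. In most tissues CGRP comes from nerve fibers of sensory neurons, while adrenomedullin and the receptor are prominent in the endothelium of vessels.

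Calca (ENSMUSG00000030669) lies on the minus strand of chromosome 7 between 114631478 and 114636357 in GRCm38, and Calcb (ENSMUSG00000030666), its paralog, lies nearby on the plus strand between 114718643 and 114723365. Calca is spliced into different messages. Calca-201 holds the exon that encodes CGRP, which spans 114632416 to 114632599, and Calca-202 ends instead on the exon of calcitonin, from 114633293 to 114633785. The gene counts add these transcripts together, so a Calca value here is a value of both messages. The coding part of the CGRP exon is shown for both genes because it is where they are most alike. It is taken from the GRCm38 genome, read 5′ to 3′ on the gene's strand, at chr7:114632443-114632599 for Calca and chr7:114721975-114722134 for Calcb, with capitals at the bases that differ or have no partner in the other gene.
Calca: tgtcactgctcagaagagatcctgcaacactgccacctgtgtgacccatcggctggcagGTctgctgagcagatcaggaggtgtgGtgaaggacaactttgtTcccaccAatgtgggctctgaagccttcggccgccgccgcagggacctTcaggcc
Calcb: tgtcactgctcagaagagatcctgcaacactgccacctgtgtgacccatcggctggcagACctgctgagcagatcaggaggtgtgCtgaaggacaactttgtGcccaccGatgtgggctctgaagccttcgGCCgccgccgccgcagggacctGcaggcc
The sequences differ in 9 of 160 aligned columns, an identity of 94.4%. The first exons share 38.4% of their aligned columns and the last exons 59.6%, and the longest identical run between transcripts of the genes is 61 bases. That run is shorter than the paired reads that the study's methods describe, so a full read covers at least one base that differs.

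The libraries held 15860278 to 19194280 counts each, on 25407 to 27092 genes. Of the 8 genes, 6 passed the expression filter and were tested among 18299 genes, and Calcb and Adm2 did not pass. The marker lists fitted the tissue label, with the 9 photoreceptor markers summing to between 50510 and 56557 CPM (counts scaled to a common library size) in every library. The 12 retinal ganglion cell (RGC) markers were all lower in MOG than in SHAM, as was known from earlier results of these data (12 of 12 passed the test, median log2 fold change -0.91 against a median of -0.0023 over all genes). In RNA of whole retinas, fewer cells of a type and less RNA per cell cannot be told apart.

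Per length, Ramp3 was by far the most abundant of the 8 genes. Its FPKM averaged 16.1 ± 1.38 (SD, n = 12) and lay above 82.7% of the tested genes. Calcrl followed at 1.14 ± 0.313, Ramp2 at 0.961 ± 0.313, Calca at 0.865 ± 0.408 and Ramp1 at 0.657 ± 0.181. Adm was at 0.310 ± 0.093, Adm2 at 0.272 ± 0.144 and Calcb at 0.063 ± 0.074. Ramp3 was above Calcrl in 12 of 12 libraries, with 14.1 times its mean FPKM, and Ramp1 was above Adm in 12 of 12. The ranges of the other neighbors in this order overlapped. Ramp2 was above Calca in 6 of 12 libraries, while Adm2 was above Calcb in 11 of 12, with 4.34 times its mean FPKM.

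**Figure D1:**
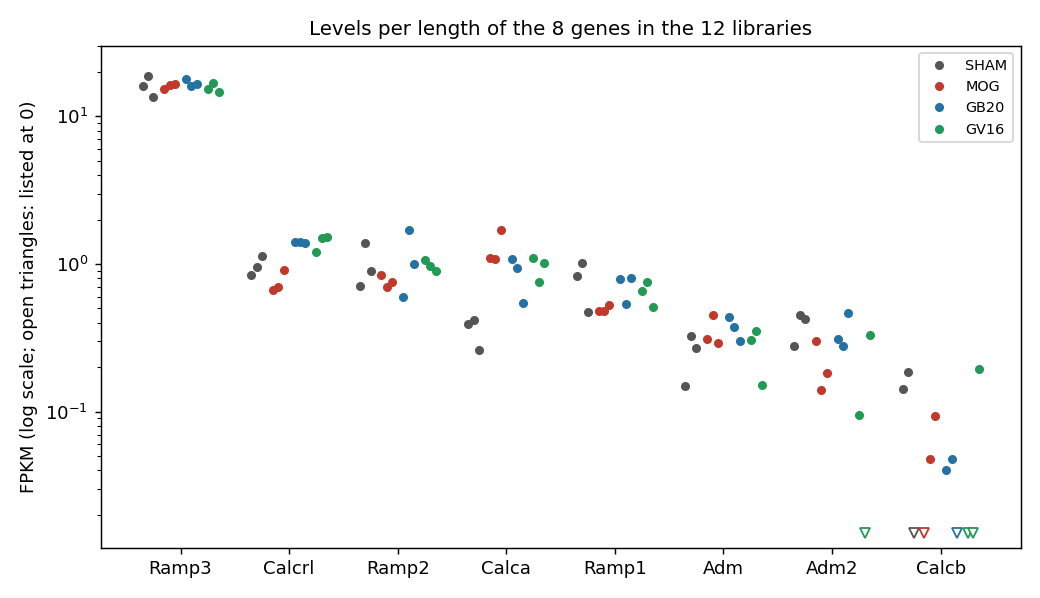
FPKM of the 8 genes in each of the 12 libraries on a log axis, ordered by mean and colored by group, with open triangles for libraries listed at 0. Ramp3 sits at a mean of 16.1 FPKM, apart from the 7 other genes, and Calcrl has a mean of 1.14.

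Calca, the gene of the alpha form of CGRP, was low in every library and lowest in SHAM. The SHAM libraries had 11, 12 and 8 raw counts, the MOG libraries 33, 30 and 48, the GB20 libraries 36, 26 and 15, and the GV16 libraries 30, 20 and 28. All 3 MOG libraries lay above all 3 SHAM libraries, the needled libraries lay between the SHAM libraries and the highest MOG library, and GB20 replicate 3 was the lowest of the immunized ones. The mean was 0.605 ± 0.141 CPM in SHAM (SD, n = 3), 2.19 ± 0.599 in MOG, 1.45 ± 0.484 in GB20 and 1.63 ± 0.303 in GV16. The summed counts were 31 in SHAM (95% Poisson interval 21.1 to 44.0) and 111 in MOG (91.3 to 134), intervals that cover counting error only.

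Calca was 3.6-fold higher in MOG than in SHAM (95% confidence interval 2.21 to 5.88, log2 fold change 1.85, SE 0.34) and was the 1 member among the 245 DEGs of that comparison. A DEG had an adjusted p under 0.05 in edgeR's quasi-likelihood test, and 1.34% of all tested genes were DEGs. Since Calca was known from this contrast, nothing is read from the count. It no longer passed the test without MOG replicate 3, its highest library, where the log2 fold change was 1.61. Compared with MOG, Calca had a log2 fold change of -0.58 (SE 0.30) in GB20 and -0.42 (SE 0.30) in GV16, and neither passed the test.

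Set against SHAM, the needled groups shared no library with MOG but shared the SHAM libraries with the comparison above. Calca was 2.41-fold higher in GB20 (edgeR adjusted p = 0.147) and 2.68-fold higher in GV16 (edgeR adjusted p = 0.0696), with no overlap between libraries in either case and without passing the test. When no filter on low counts was applied, Calca passed in GV16 vs. SHAM. The fold of GB20 over GV16 was 0.897 (95% confidence interval 0.574 to 1.40, edgeR adjusted p = 0.9999). A difference within that interval, in either direction, could not be told from none here.

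Calcb, the gene of the beta form of CGRP, had 3, 4 and 0 counts in the SHAM libraries, 0, 1 and 2 in those of MOG, 1, 1 and 0 in those of GB20, and 0, 0 and 4 in those of GV16. A count of 0 allows up to 3 counts, so none of these groups could be told from another at this depth, and no fold is given.

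Adm, the gene of adrenomedullin, which is known to be induced when oxygen is short, had 4, 9 and 8 counts in the SHAM libraries, 9, 12 and 8 in those of MOG, 14, 10 and 8 in those of GB20, and 8, 9 and 4 in those of GV16. The groups overlapped throughout. The mean was 0.405 ± 0.147 CPM in SHAM, 0.574 ± 0.142 in MOG, 0.605 ± 0.117 in GB20 and 0.441 ± 0.172 in GV16. The fold of MOG over SHAM was 1.40 with a 95% confidence interval that reached 2.71, so a change of that size could not be told from none at these counts.

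Adm2, the gene of intermedin, was counted 6, 10 and 10 times in the SHAM libraries, 7, 3 and 4 times in those of MOG, 8, 6 and 10 times in those of GB20, and 2, 0 and 7 times in those of GV16. It stayed below the expression filter. In the fit without a filter its log2 fold change was -1.39 in GV16 vs. SHAM (SE 0.66, edgeR adjusted p = 0.516) and 1.26 in GB20 vs. GV16 (SE 0.67, edgeR adjusted p = 0.980).

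**Figure D2:**
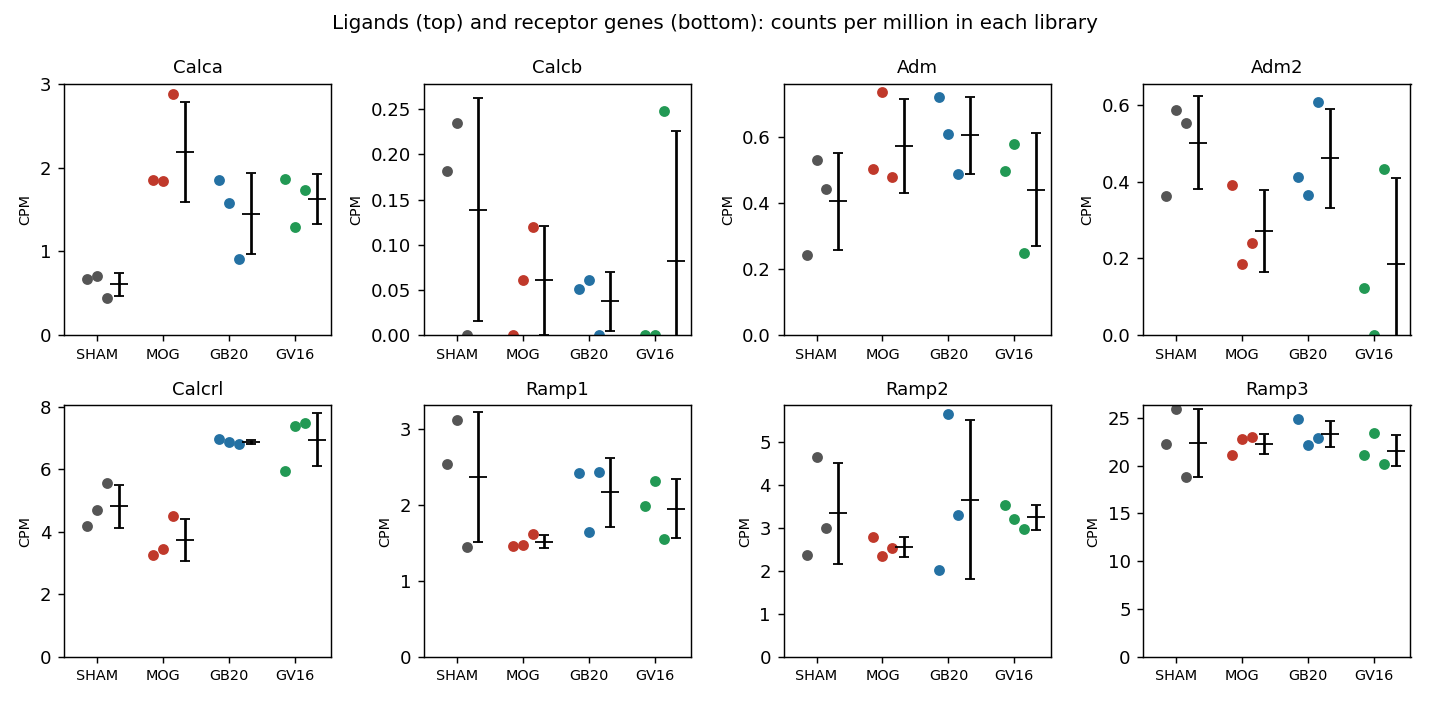
CPM of the 4 ligand genes (top) and of the receptor and accessory protein genes (bottom) in each library, with points for the 3 libraries of a group and a bar for the mean ± SD. Each panel has its own linear axis from 0, where bars that would run below 0 end. Calca is lowest in the 3 SHAM libraries, with a mean of 0.605 CPM, and Calcrl is above 5.9 CPM in all GB20 and GV16 libraries.

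Calcrl (ENSMUSG00000059588, chromosome 2, 84330626 to 84425411, minus strand), the shared receptor of these peptides, was highest in the libraries of both needled groups. The SHAM libraries had 69, 80 and 100 counts, the MOG libraries 58, 56 and 75, the GB20 libraries 135, 113 and 112, and the GV16 libraries 96, 115 and 121. Scaled to library size, the SHAM libraries lay between 4.18 and 5.55 CPM, the MOG libraries between 3.25 and 4.50, the GB20 libraries between 6.82 and 6.95, and the GV16 libraries between 5.96 and 7.49. Every needled library was thus above every MOG and SHAM library, while MOG and SHAM overlapped. The 3 GB20 libraries differed by a coefficient of variation of 0.977%, less than the 9.13% that counting error alone gives at their mean count, so their closeness is no measure of the spread between GB20 retinas.

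The mean of Calcrl was 3.73 ± 0.677 CPM in MOG, 6.88 ± 0.067 in GB20 and 6.95 ± 0.858 in GV16 (SD, n = 3 each). This was 1.85-fold higher in GB20 than in MOG (95% confidence interval 1.45 to 2.35, log2 fold change 0.88, SE 0.17) and 1.86-fold higher in GV16 than in MOG (1.46 to 2.38, log2 fold change 0.90, SE 0.17). Calcrl was the 1 member among the 44 DEGs of GB20 vs. MOG, where 0.24% of all tested genes were DEGs, and the 1 member among the 30 DEGs of GV16 vs. MOG, where 0.164% were. The gene was known from these contrasts and the MOG libraries stand on one side of both, so the counts are no independent evidence. The call in GB20 vs. MOG was lost in 5 of the 12 fits that left out a library, namely without MOG replicate 1 (0.79), MOG replicate 2 (0.83), GB20 replicate 1 (0.88), GB20 replicate 2 (0.89) or GB20 replicate 3 (0.89). In GV16 vs. MOG it was lost in 4, namely without MOG replicate 1 (0.80), MOG replicate 2 (0.84), GV16 replicate 2 (0.85) or GV16 replicate 3 (0.84), all values being log2 fold changes.

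The needling sites did not differ detectably in Calcrl. The fold of GB20 over GV16 was 0.991 (95% confidence interval 0.790 to 1.24, edgeR adjusted p = 0.9999), an interval that leaves room for about as much as a 1.24-fold difference. Against SHAM, whose mean was 4.81 ± 0.692 CPM, Calcrl was 1.43-fold higher in GB20 (edgeR adjusted p = 0.227) and 1.44-fold higher in GV16 (edgeR adjusted p = 0.176), with no overlap between libraries and without passing the test. The needled libraries are the same ones in which Calcrl was known to differ from MOG. Their lack of overlap with SHAM is therefore no separate evidence. MOG had a fold of 0.773 against SHAM (log2 fold change -0.37, SE 0.17, edgeR adjusted p = 0.367).

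Over the 6 comparisons, members whose libraries did not overlap between groups numbered 1 of 6 in MOG vs. SHAM, where 16.2% of all tested genes did not overlap, 2 in GB20 vs. MOG (15.7% of all tested genes) and 2 in GV16 vs. MOG (12.6%). They numbered 0 in GB20 vs. GV16 (8.34%), 2 in GB20 vs. SHAM (12.7%) and 2 in GV16 vs. SHAM (14.5%). No member was a DEG in the last 3 comparisons, in which 0.00546%, 0.344% and 0.656% of all tested genes were. DESeq2 on the 12 libraries likewise called no member. At an unadjusted p under 0.05 the edgeR fit had 0, 2 and 2 members in these 3 comparisons, against 2.93%, 9.06% and 10.9% of all tested genes. In the needled groups vs. SHAM these members were Calca and Calcrl, which were also the members without overlap. The set was chosen with values of Calca and Calcrl in these libraries known, so none of these counts is independent evidence.

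**Figure D3:**
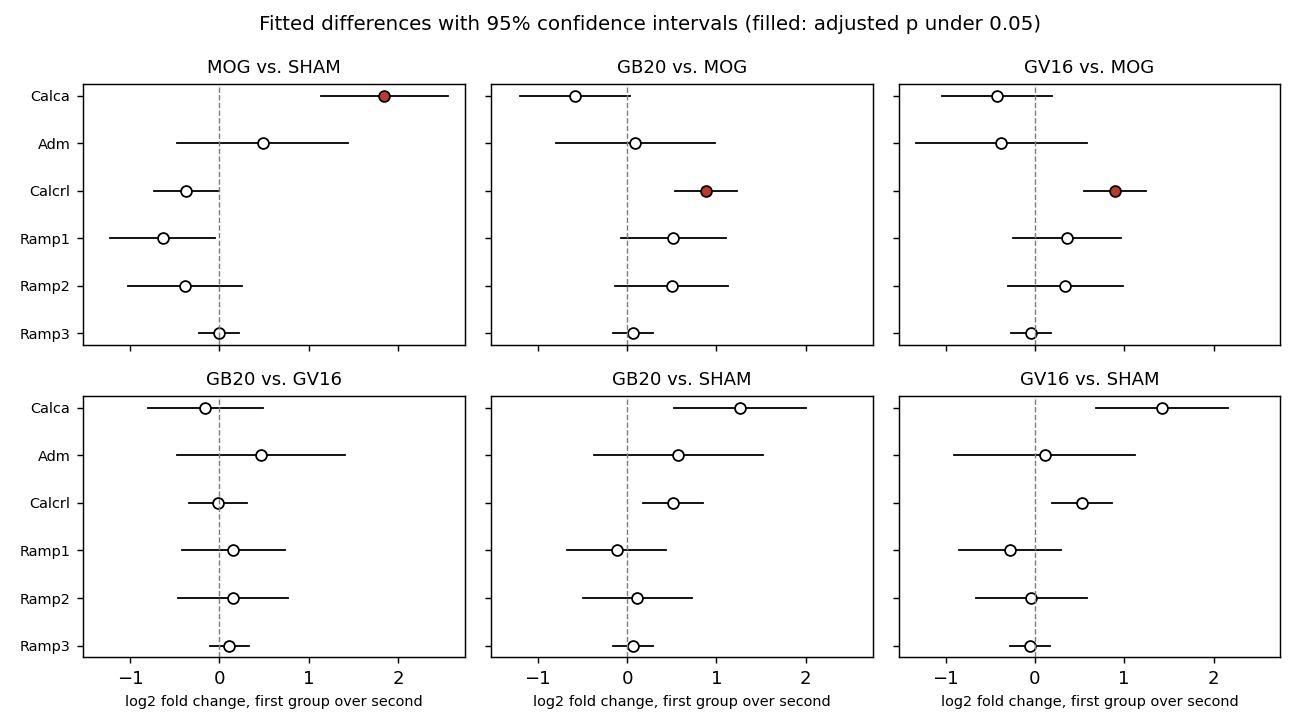
Fitted log2 fold changes of the 6 tested members in the 6 comparisons, with horizontal lines for the 95% confidence intervals and filled points for adjusted p under 0.05 in edgeR. Calca at 1.85 in MOG vs. SHAM and Calcrl at 0.88 and 0.90 in the needled groups vs. MOG are the filled points.

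Ramp1 (ENSMUSG00000034353, chromosome 1, 91179822 to 91225196), whose product turns the receptor into the CGRP receptor, had 42, 53 and 26 counts in the SHAM libraries, 26, 24 and 27 in those of MOG, 47, 27 and 40 in those of GB20, and 32, 36 and 25 in those of GV16. The MOG libraries were close together at 1.52 ± 0.091 CPM and lay at the low end of the SHAM range, 1.44 to 3.12 CPM. Its log2 fold change was -0.63 in MOG vs. SHAM (SE 0.28, edgeR adjusted p = 0.335). In GB20 vs. MOG, where the libraries did not overlap, it was 0.52 (SE 0.28, edgeR adjusted p = 0.663), and in GV16 vs. MOG it was 0.36 (SE 0.29).

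Ramp2 (ENSMUSG00000001240, chromosome 11, 101246028 to 101259546), needed for the main adrenomedullin receptor of vessels, was counted 39, 79 and 54 times in the SHAM libraries, 50, 38 and 42 times in those of MOG, 39, 93 and 54 times in those of GB20, and 57, 50 and 48 times in those of GV16. GB20 replicate 2, at 5.65 CPM, and SHAM replicate 2, at 4.65 CPM, stood above all other libraries, and no comparison passed the test. In GV16 vs. MOG, where the libraries did not overlap, the log2 fold change was 0.34 (SE 0.31). Without GB20 replicate 2 the log2 fold change in GB20 vs. MOG was 0.037 instead of 0.50. Of its 3301 exon bases, 1103 (33.4%) are shared with Vps25 on the same strand, so reads there could have been counted for either gene or for neither, and the Ramp2 values are uncertain to that extent. If no counted read came from the shared bases, its level per base not shared averaged 1.45 ± 0.477.

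Ramp3 (ENSMUSG00000041046, chromosome 11, 6658521 to 6677475), the other partner for adrenomedullin, was the steadiest member. It ranged from 18.8 to 25.9 CPM in SHAM, 21.1 to 23.0 in MOG, 22.2 to 24.9 in GB20 and 20.2 to 23.4 in GV16, and the groups overlapped in every comparison. The fitted log2 fold changes of Ramp3 lay between -0.050 and 0.11, with an SE of about 0.11, and its sign in MOG vs. SHAM (-0.0035) flipped under another library scaling (0.0025). Of its exon bases, 7.32% overlap the pseudogene Gm11978 on the other strand.

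Ramp3 thus made up most of the RAMP message in all groups. On the FPKM scale its share of the summed RAMPs was 90.2% ± 1.45 in SHAM, 92.7% ± 0.622 in MOG, 90.2% ± 2.53 in GB20 and 90.6% ± 0.683 in GV16 (SD, n = 3 each). Over all libraries Ramp2 held 5.42% ± 1.62 and Ramp1 3.67% ± 0.762. The ratio of Ramp3 to Calcrl, in FPKM, was 16.8 ± 4.16 in SHAM, 21.5 ± 2.96 in MOG, 12 ± 0.63 in GB20 and 11.1 ± 1.5 in GV16. It ran from 18.1 to 23.4 in MOG and from 9.53 to 12.7 in the needled groups, without overlap, which repeats the values of Calcrl since Ramp3 hardly moved.

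The rest of the system was followed through gene lists. Other genes linked to the calcitonin family include the calcitonin receptor gene Calcr and Crcp, whose product couples the CGRP receptor to its signal. Ackr3, a scavenging receptor that binds adrenomedullin, and Gpr182, once proposed as an adrenomedullin receptor, were listed with them. None of the 4 tested was a DEG in any comparison, and Iapp, the gene of amylin, had no count. Calcr averaged 0.875 CPM over the SHAM libraries and 0.922 over those of MOG. Crcp averaged 30.6 ± 4.21 CPM in SHAM against 26.3 ± 0.299 in MOG, and Gpr182 5.07 ± 0.167 against 4.87 ± 0.757.

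Of the 14 genes that process or break down peptide hormones, 1 was a DEG. Pcsk1n, whose product proSAAS inhibits a prohormone convertase, fell from 186 ± 25.3 to 140 ± 10.9 CPM in MOG (log2 fold change -0.41, SE 0.10). Of the 27 genes of the Gs and cAMP relay, on which the receptors act, 1 was a DEG. Prkar1b, a neuronal regulatory subunit of protein kinase A, fell from 148 ± 8.59 to 120 ± 6.71 CPM in MOG (log2 fold change -0.31, SE 0.07). The median log2 fold change in MOG vs. SHAM was -0.14 for the processing list and -0.048 for the relay list, and none of either list was a DEG in the other 5 comparisons. Of 17 tested hypoxia targets, among which Adm itself is often counted, none was a DEG. Vegfa averaged 192 ± 15.8 CPM in SHAM and 197 ± 0.326 in MOG, and Ndrg1 202 ± 9.56 and 199 ± 3.95. None of the 13 other retinal neuropeptide genes was a DEG, with Cartpt at 67.6 ± 11.9 CPM in SHAM and 58.1 ± 7.57 in MOG and Tac1, the gene of substance P, at 21.4 ± 3.01 and 21.1 ± 0.716 CPM.

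Markers of the cells in which these genes are usually found were set beside them. For vessels, none of 16 endothelial genes and none of 10 mural genes was a DEG in any comparison. The summed endothelial level ran from 293 to 330 CPM in SHAM, 313 to 335 in MOG, 295 to 317 in GB20 and 271 to 321 in GV16. The summed mural level averaged 93.2 ± 4.96 CPM in SHAM, 96.0 ± 3.41 in MOG, 90.3 ± 1.93 in GB20 and 88.6 ± 11.2 in GV16. Calcrl amounted to 1.57% ± 0.287 of the endothelial sum in SHAM, 1.14% ± 0.187 in MOG, 2.24% ± 0.107 in GB20 and 2.37% ± 0.455 in GV16. Kdr and Flt1, the VEGF receptors, supplied most of that sum, with Kdr at 153 ± 9.06 CPM in MOG, 139 ± 4.13 in GB20 and 125 ± 12.5 in GV16, and Flt1 at 93.1 ± 5.06, 93.8 ± 5.90 and 96.7 ± 2.12. The sum hides lower values of other endothelial genes. In MOG vs. SHAM the log2 fold change was 0.15 for Kdr and 0.17 for Flt1, while the median of the 16 genes was -0.16. That median was -0.29 in both GB20 and GV16 vs. SHAM, and -0.014 and -0.033 in GB20 and GV16 vs. MOG. Among the mural genes Rgs5 was at 58.1 ± 4.57 CPM in MOG and Pdgfrb at 14.5 ± 1.26. The part of vessel content in the values of Calcrl was not tested.

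For sensory nerve fibers, whose cell bodies lie outside the eye, 4 of 8 listed markers were tested. Mrgprd had no count, and Scn10a and Prdm12 were at or near 0 CPM in every group. The summed level ran from 13.5 to 15.2 CPM in SHAM and from 10.1 to 10.8 in MOG. Prph, an intermediate filament gene that ganglion cells express as well, fell from 4.42 ± 0.558 to 1.87 ± 0.134 CPM in MOG and was the only DEG of the list. Without Prph the sum averaged 9.89 ± 0.763 CPM in SHAM and 8.62 ± 0.395 in MOG, so Prph supplied most of the difference. The sums without Prph still did not overlap, at 9.02 to 10.4 CPM in SHAM and 8.17 to 8.90 in MOG. The part of nerve fiber content in the values of Calca was not tested.

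The summed RGC markers ran from 883 to 1000 CPM in SHAM, 488 to 592 in MOG, 591 to 611 in GB20 and 460 to 672 in GV16. Among them the neurofilament genes Nefl and Nefh fell in MOG from 280 ± 15.3 to 146 ± 15.1 CPM and from 97.5 ± 8.74 to 53.0 ± 6.78 CPM. Sncg, the gene of gamma-synuclein, fell from 70.8 ± 10.2 to 37.2 ± 1.59 CPM, and Isl2, a transcription factor gene, from 6.67 ± 0.599 to 3.02 ± 0.445. This list was lower where Calca was higher, and its part in the values of Calca was not tested. Of 12 genes known to change after axon injury, 3 rose and 1 fell in MOG vs. SHAM. Ecel1, a membrane peptidase of injured neurons, rose from 0.815 ± 0.112 to 6.80 ± 1.96 CPM, and Fgf2, a growth factor, from 29.8 ± 0.813 to 65.3 ± 9.77 CPM. Sprr1a, which injured neurons make when they regrow, was at 0 in the 3 SHAM libraries and at 0.574 ± 0.335 CPM in MOG. Stmn2, a tubulin regulator of growing axons, fell from 63.7 ± 6.38 to 44.0 ± 5.16 CPM. Fgf2 was also a DEG in GV16 vs. MOG, being lower at 45.5 ± 4.78 CPM in GV16 (log2 fold change -0.52, SE 0.10). No other gene of this list was a DEG in a needled group vs. MOG.

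**Figure D4:**
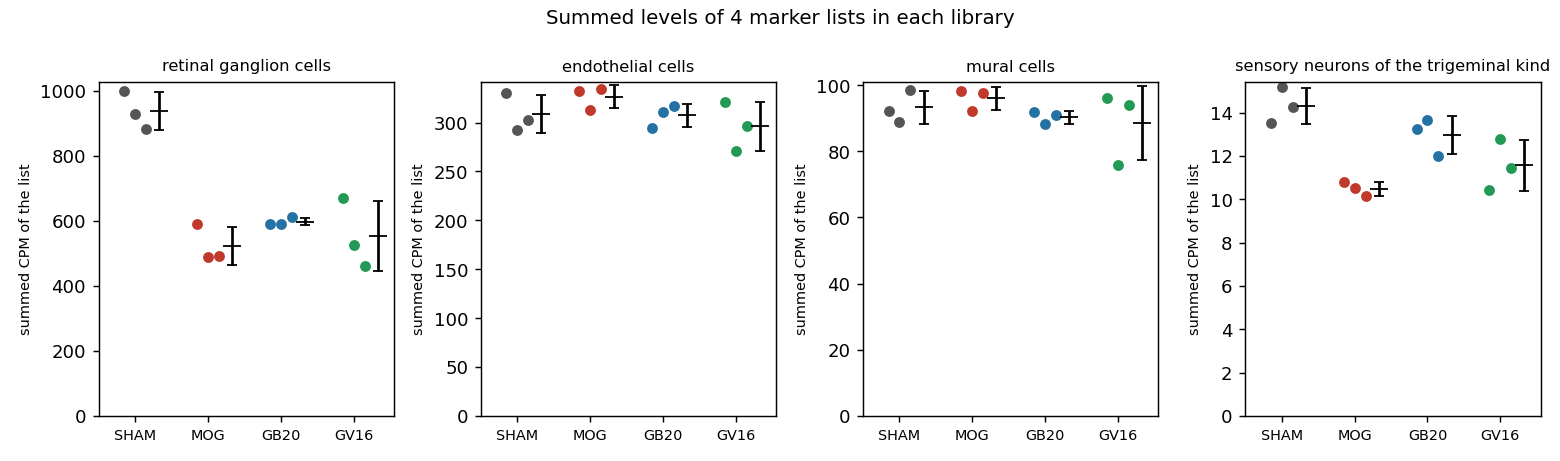
Summed CPM of the RGC, endothelial, mural and sensory neuron marker lists in each library, with points for the 3 libraries of a group and a bar for the mean ± SD on linear axes from 0. The RGC sum is lower in MOG, at 488 to 592 CPM, than in SHAM, at 883 to 1000 CPM, while the endothelial sums of the 4 groups overlap.

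Glia and other tissue that a dissected retina can carry were checked as well. Of 9 microglial genes, Csf1r and C1qa rose in MOG vs. SHAM, and the sum of the list ran from 41.3 to 49.3 CPM in SHAM and from 58.5 to 67.3 in MOG. Csf1r, a growth factor receptor gene, went from 6.09 ± 0.730 to 9.15 ± 0.927 CPM, and C1qa, a complement gene, from 4.43 ± 1.69 to 8.79 ± 1.33 CPM. Of 8 Müller cell genes 1 was a DEG in MOG vs. SHAM, Aqp4, the water channel of Müller endfeet on vessels, which rose from 105 ± 7.76 to 145 ± 8.69 CPM. Compared with MOG it fell, to 113 ± 2.54 CPM in GB20 and 114 ± 3.78 CPM in GV16. Rlbp1, a retinoid carrier gene of Müller cells, was lower in GV16 (293 ± 19.2 CPM) than in SHAM (377 ± 25.1 CPM), and of the 9 photoreceptor genes the cone opsin gene Opn1mw was higher in GV16 (191 ± 20.3 CPM) than in SHAM (150 ± 3.74 CPM), both DEGs in GV16 vs. SHAM. None of 10 tested genes of pigment epithelium and choroid was a DEG, with sums of 306 to 429 CPM in SHAM, 414 to 469 in MOG, 382 to 404 in GB20 and 409 to 459 in GV16. Trpm1, which bipolar cells express too, supplied most of that sum (342 ± 65.5 CPM in SHAM and 391 ± 21.1 in MOG), and Ttr was at 8.02 ± 2.37 and 14.5 ± 1.57 CPM. The sum therefore says little about the rest of the list. The median log2 fold change of the 10 genes was 0.24 in MOG vs. SHAM (-0.20 to 1.63). It was 0.53 in GB20 vs. SHAM (0.0059 to 1.53) and 0.45 in GV16 vs. SHAM (-0.39 to 1.79). Blood sums ran from 6.75 to 13.3 CPM over all libraries, with none of 3 tested genes a DEG, and the hemoglobin genes Hba-a1 and Hbb-bs were at 5.37 ± 0.715 and 2.93 ± 0.680 CPM in SHAM. Lens genes summed to at most 1.35 CPM in 10 libraries, to 10.1 CPM in SHAM replicate 2 and to 6.32 CPM in GB20 replicate 2. The only tested lens gene, Bfsp1, was no DEG. SHAM replicate 2 and GB20 replicate 2 were also the libraries highest in Ramp2. The part of these lists in the results was not tested.

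The genes most like Calca and Calcrl in pattern were sought by the root mean square difference of log2 CPM, each gene being centered on its mean over the 12 libraries. For Calca they were Edn2, the gene of the vasoactive peptide endothelin 2 (0.267), Tnnt2, a troponin gene (0.291), the lincRNA CT025671.4 (0.307), Gfap, the filament of reactive glia (0.320), and Ctss, a protease gene of microglia (0.326), against a median of 0.705 over the 18298 other genes. Edn2 was at 9.18 ± 2.77 CPM in SHAM, 30.5 ± 9.52 in MOG, 24.6 ± 3.05 in GB20 and 19.9 ± 3.48 in GV16. As for Calca, its highest library was MOG replicate 3. Gfap went from 23.1 ± 3.26 in SHAM to 54.9 ± 3.08 in MOG, 51.2 ± 12.3 in GB20 and 41.3 ± 7.0 in GV16. Of the 5, all but CT025671.4 were DEGs in MOG vs. SHAM and none was in GB20 or GV16 vs. MOG.

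For Calcrl the nearest genes were the pseudogene Gm16209 (0.165), the clock gene Per2 (0.217), Mgp, an inhibitor of calcification made by vessel wall cells (0.222), Pdzrn4 (0.234) and the pseudogene Gm48583 (0.238), against a median of 0.437. Per2 was at 39.3 ± 6.17 CPM in SHAM, 30.2 ± 2.91 in MOG, 48.9 ± 2.89 in GB20 and 46.4 ± 5.68 in GV16, and it was a DEG in both comparisons of a needled group with MOG. Mgp was at 3.10 ± 0.16 CPM in SHAM, 3.29 ± 0.48 in MOG, 5.12 ± 0.921 in GB20 and 4.44 ± 0.403 in GV16 and was no DEG in any comparison. These neighbors were ranked over 12 libraries that share the group differences, so the closeness is a description.

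**Figure D5:**
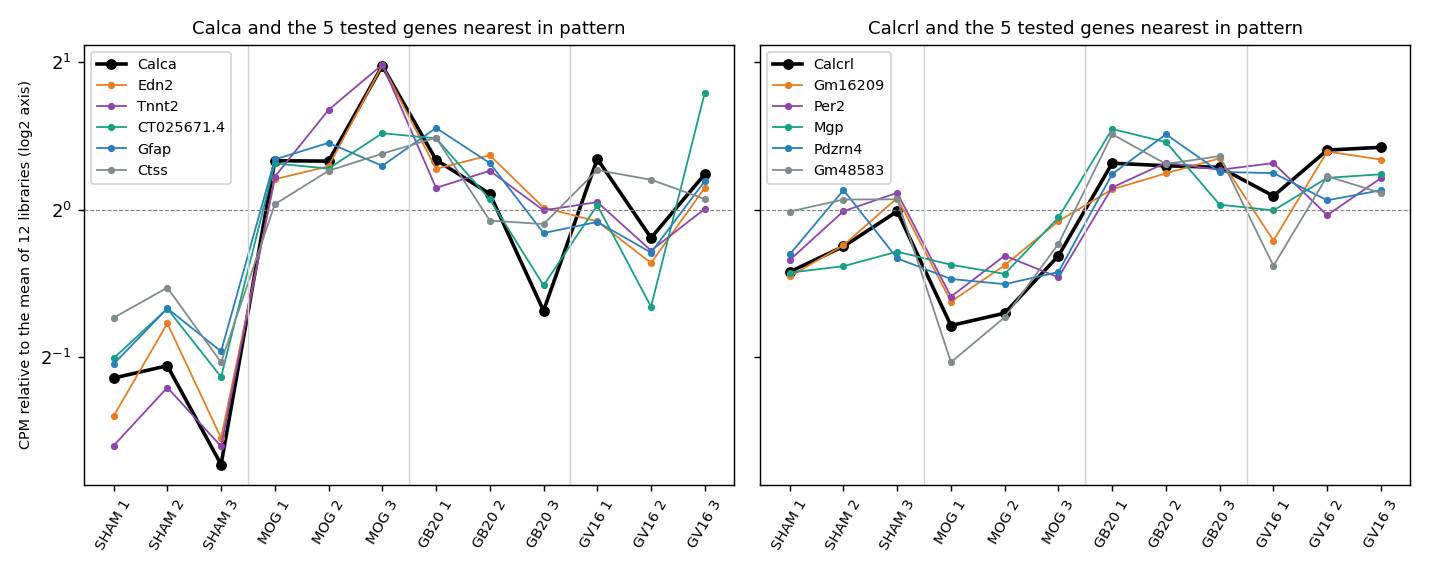
CPM of Calca (left) and Calcrl (right), in black, and of the 5 tested genes nearest to each in pattern, in each library relative to the gene's mean over the 12 libraries, on a log2 axis. The Calca set is lowest in the SHAM libraries. By group means, 4 of the 5 neighbors of Calcrl are lowest in MOG, and Mgp is lowest in SHAM.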

How the data were processed

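RNA of 12 retinal libraries was measured, and the sample labels gave each library's group and replicate number. The authors selected polyadenylated RNA, aligned paired reads with HISAT2 2.0.5 (the submitters' processing notes name the build mm10) and counted them per gene with FeatureCounts. They deposited whole-number counts without normalization, and FPKM values that they computed from those counts and the gene length. Which annotation release, strand setting and rule for multi-mapping reads they used was not given in the sources used here. GENCODE vM21 (GRCm38) supplied names, coordinates and sequences for 54409 of the 54532 identifiers. No entry of the tables lacked an identifier, and no value column was left unmapped.

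The test was edgeR's quasi-likelihood test (edgeR 4.0.16, R 4.3.3). After its expression filter by group and TMM scaling, 1 model with a mean for each of the 4 groups and robust dispersion was fitted to the 12 libraries, with 8 residual degrees of freedom. Genes with an adjusted p (Benjamini-Hochberg over the 18299 genes tested) under 0.05 were DEGs, at any size of change. The 6 comparisons were MOG, GB20 and GV16 vs. SHAM, GB20 and GV16 vs. MOG, and GB20 vs. GV16. CPM was computed with TMM-scaled library sizes. FPKM served to compare levels between genes and as log2(FPKM + 1) in limma 3.58.1. Depth varied little between libraries and no library was thinned. Alternatives were another scaling, no filter, a replicate block, DESeq2 1.42.0 on 12 or 6 libraries, edgeR on 6 libraries, limma on FPKM with a pseudocount of 1 or 0.1, and each library left out. The edgeR and DESeq2 fits, and limma on log2(CPM + 1) in place of FPKM, were run on simulated counts for MOG vs. SHAM. Changes were planted in MOG only and in no gene of very low count. This run therefore does not cover the limma fits on FPKM, the other comparisons or the lowest members. Python 3.11.15 and matplotlib 3.10.9 drew the figures.

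The members and the 16 gene lists (185 genes, written from general knowledge) were chosen with earlier results of these data known. Named were all 8 members, from each list the DEGs of any comparison, at most 4 by smallest adjusted p, or the 2 genes of highest mean CPM where there was none, and the 5 tested genes nearest in pattern to Calca and Calcrl. A few further list genes (Calcr, Ackr3 and the sensory neuron markers at or near 0) were named after their values were seen.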

Additional observations from a re-analysis of the deposited data

How the results depend on the processing

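The calls of Calca and Calcrl depended on the fit. Calca in MOG vs. SHAM passed in 19 of 21 alternatives (log2 fold change 0.75 to 1.98). Calcrl passed in 13 of 21 in GB20 vs. MOG (0.45 to 1.04) and in 14 of 21 in GV16 vs. MOG. With limma on log2(FPKM + 1) without a filter 0 members were called in MOG vs. SHAM, and with each of the 3 limma fits 0 were called in GB20 vs. MOG and 0 in GV16 vs. MOG. The log2(FPKM + pseudocount) scale shrinks changes of low genes, but whether this cost the calls was not tested. On log2(FPKM + 0.1) the log2 fold change of Calcrl was 0.82 in GB20 vs. MOG and 0.82 in GV16 vs. MOG. In the edgeR fit these values were 0.88 and 0.90. On log2(FPKM + 1) with the filter, Calca in MOG vs. SHAM was at 0.75, against 1.85 in the edgeR fit, and still passed. Without a filter 1 member, Calca, was called in GV16 vs. SHAM. Of 751 member values under alternatives, 709 kept direction and side of the threshold and 24 reversed. Values for which DESeq2 gave no adjusted p were counted there as not passing. Calcb, with at most 4 counts in a library, passed in no comparison of the fit without a filter (edgeR adjusted p 0.761 to 1), and DESeq2 gave no adjusted p for Adm, Adm2 and Calcb in most comparisons.

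Counts of DEGs over all genes moved more. As reported there were 245 in MOG vs. SHAM, then 44 in GB20 and 30 in GV16 vs. MOG, 1 in GB20 vs. GV16, and 63 in GB20 and 120 in GV16 vs. SHAM. In that order they were 539, 140, 73, 8, 282 and 395 without a filter. With limma they were 117, 14, 6, 0, 14 and 36 on log2(FPKM + 1), 106, 15, 5, 0, 11 and 39 on log2(FPKM + 0.1), and 57, 12, 9, 2, 5 and 7 on log2(FPKM + 1) without a filter. DESeq2 on 12 libraries called 5 in GB20 vs. GV16, 152 in GB20 vs. SHAM and 202 in GV16 vs. SHAM. On the 6 libraries of a comparison DESeq2 called 126 in GB20 vs. MOG, 57 in GV16 vs. MOG, 4 in GB20 vs. GV16 and 124 in GB20 vs. SHAM, and edgeR called 118, 48 and 3 in the first 3 of these and 66 in GV16 vs. SHAM. Why these counts moved was not tested.

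With the replicate number as a block, edgeR called 404 genes in MOG vs. SHAM, 73 in GB20 and 47 in GV16 vs. MOG, and 182 in GB20 and 236 in GV16 vs. SHAM, and the block changed no call of a member. The methods describe repeats of the experiment and call a repeat a replicate. They do not say that the number in a library's label names its repeat, and the labels give no shared batch or day. The numbers were therefore not taken as pairs, although a blocked design is possible. Deviations of same-numbered libraries correlated above 0.1 in 8 of 18 pairs (r from -0.11 to 0.46 over 13416 genes), and 10 of 12 libraries correlated best with their own number, a hint from the data and not the design.

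Leaving out 1 library at a time gave 91 to 427, 13 to 83, 10 to 38, 0 to 4, 14 to 116 and 23 to 231 DEGs in the order above, and 0 to 1 members called in each of the first 3 comparisons. Log2 fold changes near 0 reversed. Ramp3 in MOG vs. SHAM was 0.0025 with another scaling, 0.0023 with the block, 0.0081, 0.0092 and 0.0081 in the limma fits, and -0.12 to 0.12 with a library left out. Ramp2 in GV16 vs. SHAM was 0.011 with limma on log2(FPKM + 0.1). With a library left out the ranges were -0.061 to 0.30 for Adm in GB20 vs. MOG. In GB20 vs. GV16 they were -0.38 to 0.077 for Calca, -0.11 to 0.045 for Calcrl and -0.31 to 0.46 for Ramp2. In GB20 vs. SHAM they were -0.38 to 0.13 for Ramp1, -0.35 to 0.43 for Ramp2 and -0.049 to 0.19 for Ramp3. In GV16 vs. SHAM they were -0.24 to 0.27 for Ramp2, -0.16 to 0.073 for Ramp3 and -0.14 to 0.40 for Adm.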
